A study of Mus musculus with 6 samples.

Results

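Protocadherins are the largest group of genes in the cadherin superfamily, and 69 of the 52636 genes in the count table of mouse embryoid bodies (EBs) are protein-coding genes whose symbol starts with Pcdh. The members were chosen by gene symbol alone, but the family itself was picked with earlier results of the same comparison known. Fold changes and adjusted p-values of members are therefore given as a description, taken from a fit to all genes, and nothing about the family as a whole is read from them. Of the 69 genes, 14 belong to the Pcdha cluster, 22 to the Pcdhb cluster, and 21 to the Pcdhg cluster, whereas 12 are unclustered. EBs are aggregates in which embryonic stem cells (ESCs) begin to differentiate. RNA was sequenced on day 3 of differentiation from 3 samples of the parental wild type (WT) E14 ESC line and from 3 samples of a Tnfaip2-/- line, made from the same parental cells with CRISPR/Cas9 and carrying a premature stop in exon 2 of Tnfaip2. The Tnfaip2-/- line is 1 clone, so genotype and clone cannot be told apart. The study names its 3 samples per genotype biological replicates, and p-values measure the spread between these samples of 1 line each. The comparison asks how expression on day 3 differs without Tnfaip2.

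Protocadherins are single-pass membrane proteins with extracellular cadherin repeats that bind the same isoform on a neighbouring cell. In the Pcdha and Pcdhg clusters, each gene has its own promoter and its own large variable exon, which is spliced to constant exons shared by the whole cluster, whereas Pcdhb genes consist of a variable exon only. Neurons choose among the variable promoters with the help of CTCF, cohesin, and DNA methylation, while the C-type genes at the ends of the Pcdha and Pcdhg clusters are regulated differently. Unclustered protocadherins lie mostly on other chromosomes and have roles in morphogenesis as well as in neural circuits.

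The promoters of 4 unclustered members are shown first, those of Pcdh8, Pcdh18, and Pcdh7, which were lower in Tnfaip2-/- EBs, and that of Pcdh19, which was not called. Sequences are from RefSeq (GRCm38.p6), from 250 bases before to 50 bases after the start site, 5′ to 3′ on the strand of the gene, with capitals for CCAAT and TATAAA on either strand (ATTGG and TTTATA on the other strand).
Pcdh8, chr14:79771263-79771562, reverse strand: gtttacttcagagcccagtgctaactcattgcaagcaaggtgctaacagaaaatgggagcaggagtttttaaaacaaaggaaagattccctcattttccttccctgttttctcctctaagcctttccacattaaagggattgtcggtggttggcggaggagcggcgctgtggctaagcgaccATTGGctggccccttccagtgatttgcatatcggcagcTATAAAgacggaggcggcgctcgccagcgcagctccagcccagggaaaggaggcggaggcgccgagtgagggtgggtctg
Pcdh18, chr3:49757267-49757566, reverse strand: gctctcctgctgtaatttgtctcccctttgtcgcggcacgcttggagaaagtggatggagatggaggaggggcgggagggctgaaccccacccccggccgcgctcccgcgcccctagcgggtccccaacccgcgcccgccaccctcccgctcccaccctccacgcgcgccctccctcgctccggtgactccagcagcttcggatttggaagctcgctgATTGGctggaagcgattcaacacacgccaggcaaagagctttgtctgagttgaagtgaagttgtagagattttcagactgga
Pcdh7, chr5:57717831-57718130, forward strand: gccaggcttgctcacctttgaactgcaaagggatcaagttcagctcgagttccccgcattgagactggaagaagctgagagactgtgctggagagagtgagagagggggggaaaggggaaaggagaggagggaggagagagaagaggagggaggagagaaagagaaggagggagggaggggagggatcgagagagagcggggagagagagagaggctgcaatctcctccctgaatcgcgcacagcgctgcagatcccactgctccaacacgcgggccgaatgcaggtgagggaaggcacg
Pcdh19, chrX:133688944-133689243, reverse strand: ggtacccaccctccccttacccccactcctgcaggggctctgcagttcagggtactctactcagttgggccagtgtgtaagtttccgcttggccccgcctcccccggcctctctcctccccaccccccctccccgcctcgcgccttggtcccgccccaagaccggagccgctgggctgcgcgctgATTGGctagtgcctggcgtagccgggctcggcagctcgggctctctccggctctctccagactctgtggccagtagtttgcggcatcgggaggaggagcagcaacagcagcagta
Counted from the start site, the CCAAT match lies at -68 in Pcdh8, at -32 in Pcdh18, and at -65 in Pcdh19, and the TATAAA match of Pcdh8 lies at -30, whereas the window of Pcdh7 holds neither. Of 32851 promoters of the same length, 37.4% hold CCAAT and 13.6% hold TATAAA. The promoters of 9 of the 12 unclustered members were used here, of which 8 hold CCAAT and 2 hold TATAAA. Neither AGGTGTGA, bound by T-box factors (1.28% of all promoters), nor CACGTG, an E-box (7.15%), occurs in these 9 promoters on either strand. CpG pairs number 14 in the window of Pcdh8, 23 in Pcdh18, 11 in Pcdh7, and 18 in Pcdh19, against a median of 7 over all promoters. A match is a description of letters and not of a bound site.

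The depth of the samples was similar, with totals of 22987433, 22489903, and 23804489 counts in the WT samples and of 22480962, 21765931, and 21986960 in the Tnfaip2-/- samples. A count of 0 allows up to 3 counts per library, which corresponds to between 0.128 and 0.137 counts per 1000000 counts (CPM), and this limit covers counting error only. Tnfaip2, the targeted gene, had 7, 4, and 7 counts in the WT samples and 0, 2, and 2 in the Tnfaip2-/- samples. The samples labelled Tnfaip2-/- were thus lower in each case, without overlap. Relative to the totals, the summed counts were 4.3-fold higher in WT EBs (18 against 4 counts, exact 95% interval from 1.42 to 17.5 for counting error only, without the spread between samples). The gene did not pass the filter on low counts, and in fits without this filter its adjusted p was 0.0133 with edgeR and 0.0923 with DESeq2.

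Most protocadherins were at or near 0 in both genotypes. Of the 69 members, 6 had 0 counts in all samples, 34 never exceeded 3 counts, and 48 never exceeded 10 counts in any sample. The filter on low counts kept 18 members, 13 from the Pcdhg cluster and 5 unclustered genes, and none from the Pcdha or Pcdhb cluster. By edgeR's quasi-likelihood test, 10 of these 18 were called lower in Tnfaip2-/- EBs (adjusted p below 0.05) and 0 higher, whereas of all 17849 genes tested 67.7% were called, 33.7% as lower and 34.0% as higher. At an unadjusted p below 0.05 the count of higher members was also 0, as it was with DESeq2 at its adjusted threshold. All 3 WT samples lay above all 3 Tnfaip2-/- samples in 11 of the 18 members, against 34.5% of all tested genes. Among the 18, 6 met the filter in the WT samples and not in the Tnfaip2-/- samples, namely Pcdh7, Pcdh18, Pcdhgb2, Pcdhgb4, Pcdhga9, and Pcdhga11, so a lower value in Tnfaip2-/- EBs is favoured by the filter itself. The median log2 fold change of the tested members was -0.71, and that of all tested genes was 0.00297. In bulk RNA, fewer cells that express a gene and less RNA per cell cannot be told apart, which holds for each difference given here.

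Pcdh1, a widely expressed protocadherin of epithelia, had 1785, 1721, and 1821 counts in the WT samples and 798, 793, and 812 in the Tnfaip2-/- samples. Every WT sample was more than double any Tnfaip2-/- sample. The level was 77.6 ± 0.967 CPM in WT EBs and 35.9 ± 0.771 CPM in Tnfaip2-/- EBs (SD, n = 3), with a log2 fold change of -1.11 (SE 0.04, edgeR adjusted p = 5.47e-28). Pcdh1 (ENSMUSG00000051375) lies on the reverse strand of chromosome 18, from 38185914 to 38212053, downstream of the 3 clusters and outside them. Per kb of exon sequence that is not shared with other annotated genes, called countable kb here, Pcdh1 reached 8.83 CPM in WT EBs and was the highest member in both genotypes, with 4.09 CPM per countable kb in Tnfaip2-/- EBs. Of all counts of the unclustered members, Pcdh1 held 83.8% ± 1.16 in WT EBs and 93.7% ± 0.56 in Tnfaip2-/- EBs (SD, n = 3).

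Pcdh8, also known as paraxial protocadherin for its expression in the mesoderm that forms somites, had 215, 190, and 163 counts in the WT samples and 24, 31, and 21 in the Tnfaip2-/- samples. The groups were far apart, and the lowest WT sample exceeded the highest Tnfaip2-/- sample severalfold. The level was 8.30 ± 1.28 CPM against 1.14 ± 0.245 CPM (SD, n = 3), with a log2 fold change of -2.86 (SE 0.157, edgeR adjusted p = 5.49e-21). Its promoter is the only one of those printed that holds both a CCAAT and a TATAAA match. Opposite to Pcdh8, the annotated gene Gm9748 overlaps part of its exons and had 0 counts in each sample.

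Pcdh18, whose cytoplasmic part binds the adaptor Dab1, had 92, 86, and 77 counts in the WT samples and 14, 8, and 11 in the Tnfaip2-/- samples. All WT samples were higher, and the groups did not overlap. The level was 3.72 ± 0.403 CPM against 0.492 ± 0.125 CPM (SD, n = 3), with a log2 fold change of -2.90 (SE 0.216, edgeR adjusted p = 2.95e-16). The log2 fold changes of Pcdh18 and Pcdh8 differed by less than their SEs, whereas per countable kb the WT level of Pcdh18 (0.694 CPM) was below that of Pcdh8 (2.02 CPM).

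Pcdh7, whose cytoplasmic part binds protein phosphatase PP1 and the phosphatase inhibitor Set, had 46, 40, and 53 counts in the WT samples and 0 counts in all 3 Tnfaip2-/- samples. It was the only tested member with no count in a genotype. The WT level was 2.02 ± 0.235 CPM (SD, n = 3), at least 15.0-fold higher than the 3 counts per library that a count of 0 allows in Tnfaip2-/- EBs (edgeR adjusted p = 4.32e-16). The size of the fitted log2 fold change depends on the prior count of the fit and is not used. On the opposite strand, 4932441J04Rik overlaps 2235 of the 10604 exon bases of Pcdh7, and it had at most 1 count in each sample.

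Pcdh19, a delta protocadherin that pairs with N-cadherin and is known from an X-linked epilepsy, had 15, 13, and 16 counts in the WT samples and 10, 15, and 12 in the Tnfaip2-/- samples. Here the groups overlapped. The level was 0.641 ± 0.0533 CPM against 0.555 ± 0.123 CPM (SD, n = 3), with a log2 fold change of -0.21 with an SE of 0.314 (edgeR adjusted p = 0.565), so a difference was not detectable at this depth. The remaining 7 unclustered members, Pcdh9, Pcdh10, Pcdh11x, Pcdh12, Pcdh15, Pcdh17, and Pcdh20, had between 0 and 4 counts in each sample, and Pcdh11x had 0 in all samples. None of them passed the filter.

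**Figure D1:**
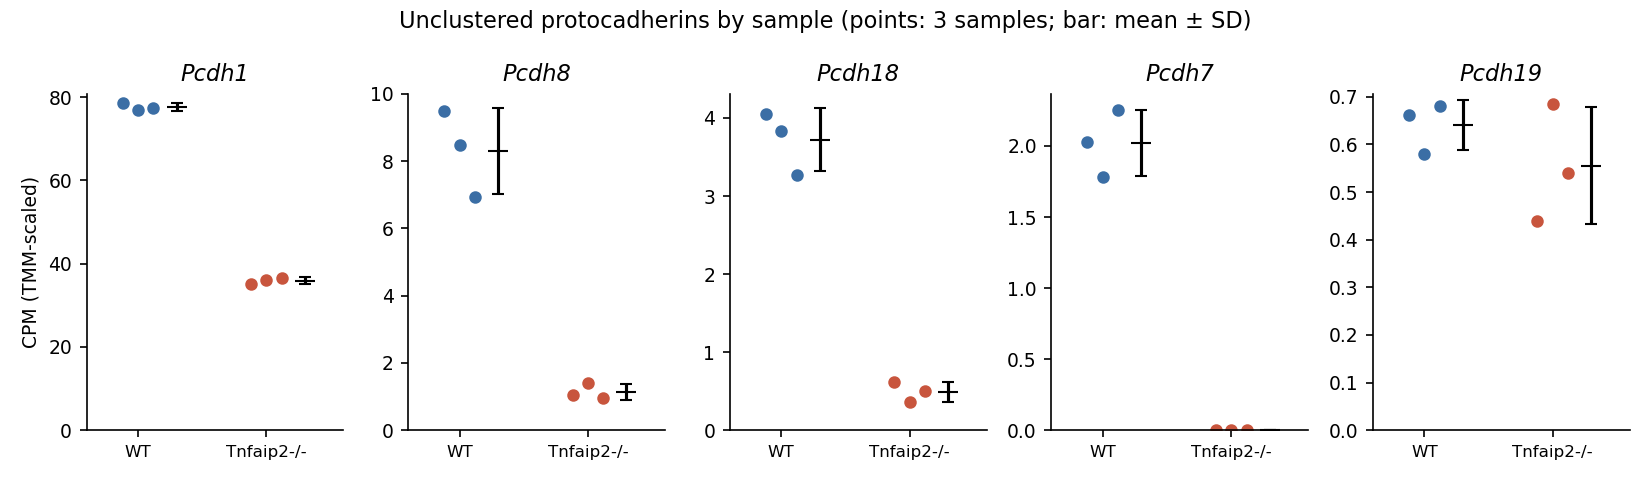
Level of the 5 unclustered protocadherins with a mean of at least 10 counts in either genotype, in CPM on a linear axis for each gene, with 1 point per sample and the mean ± SD of 3 samples as a bar. WT and Tnfaip2-/- samples are apart for Pcdh1, Pcdh8, Pcdh18, and Pcdh7, with Pcdh7 at 0 in Tnfaip2-/- EBs, and overlap for Pcdh19.

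The Pcdhg cluster was the only cluster with tested members. In every gene of the cluster at least 2116 exon bases, with the constant exons among them, are also annotated in other genes on the same strand. They were not taken as countable, which assumes that the authors counted no read that overlaps more than 1 gene, on either strand. Whether reads of these samples were handled so is not stated in the sources used here, and the values per countable kb rest on it. Over the 21 genes, a median of 54.8% of the exon bases was countable. Pcdhga10 had no countable base, since its variable exon is covered by Gm26672 on the opposite strand, and 0 counts in each sample, from which nothing is read about its expression. The annotation used for these bases (GENCODE M21, GRCm38) is later than the Ensembl release of the table.

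Pcdhgc3, a C-type gene with broader expression than the variable genes around it, had 62, 70, and 65 counts in the WT samples and 33, 18, and 21 in the Tnfaip2-/- samples. The WT samples lay close together, all above the Tnfaip2-/- samples. The level was 2.87 ± 0.217 CPM against 1.07 ± 0.333 CPM (SD, n = 3), with a log2 fold change of -1.41 (SE 0.194, edgeR adjusted p = 1.68e-08), the largest decrease among the tested Pcdhg members, to which the pseudogene Pcdhgb8 does not belong. Its share of all Pcdhg counts was 16.6% ± 1.01 in WT EBs and 9.38% ± 2.59 in Tnfaip2-/- EBs (SD, n = 3). The other C-type genes of the cluster were not tested. Pcdhgc4 had 4, 9, and 5 counts in the WT samples and 3, 1, and 0 in the Tnfaip2-/- samples. Pcdhgc5 had 7, 14, and 8 counts against 9, 7, and 7 counts, with overlap between the groups.

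Pcdhga1, the first gene of the cluster, had 37, 47, and 53 counts in the WT samples and 47, 31, and 41 in the Tnfaip2-/- samples. The groups overlapped, and the log2 fold change was -0.17 (SE 0.188, edgeR adjusted p = 0.444). Its neighbour Pcdhga2 had 44, 44, and 54 counts in the WT samples and 26, 37, and 34 in the Tnfaip2-/- samples. The groups of Pcdhga2 were separate but close, with a log2 fold change of -0.51 (SE 0.192, edgeR adjusted p = 0.0173). This call rested on single samples, since without WT replicate 3 the log2 fold change was -0.44 (edgeR adjusted p = 0.0785) and without Tnfaip2-/- replicate 1 it was -0.36 (edgeR adjusted p = 0.117). The call was also lost with DESeq2 (adjusted p = 0.135), and over all alternatives the adjusted p ranged from 0.0116 to 1.0. Pcdhga5 was the only tested member with a positive log2 fold change, with 12, 17, and 17 counts in the WT samples and 23, 19, and 19 in the Tnfaip2-/- samples. Although the groups did not overlap, the log2 fold change of 0.44 (SE 0.276) did not pass the test (edgeR adjusted p = 0.154). The share of Pcdhga5 in all Pcdhg counts was 3.85% ± 0.582 in WT EBs and 8.0% ± 0.478 in Tnfaip2-/- EBs (SD, n = 3). This share also reflects the lower sum of all Pcdhg genes, 17.3 CPM in WT EBs against 11.4 CPM in Tnfaip2-/- EBs.

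Among the 15 other Pcdhg genes, counts ranged from 0 to 39, and 9 were tested. Of these 9, 4 were called lower in edgeR's test, and they are named here after their values were seen. Pcdhga3 had 36, 32, and 38 counts against 15, 17, and 27 counts (log2 fold change -0.80). Pcdhga12 had 25, 30, and 22 counts against 16, 11, and 13 counts (log2 fold change -0.90). In both genes all WT samples were above all Tnfaip2-/- samples, and the call of Pcdhga12 was lost with DESeq2 (adjusted p = 0.0565). Pcdhga7 had 39, 20, and 29 counts against 20, 13, and 12 counts (log2 fold change -0.92), and Pcdhgb4 had 16, 25, and 15 counts against 9, 3, and 13 counts (log2 fold change -1.11). The groups of both genes were separate in CPM but close, and the lowest WT and the highest Tnfaip2-/- sample of Pcdhga7 were equal in counts. The call of Pcdhga7 was lost without WT replicate 1 (log2 fold change -0.67, edgeR adjusted p = 0.0531, range over alternatives 0.000513 to 0.192). That of Pcdhgb4 was lost without WT replicate 2 (-0.84, edgeR adjusted p = 0.0675), without Tnfaip2-/- replicate 2 (-0.73, edgeR adjusted p = 0.0745), and with DESeq2 (adjusted p = 0.0685), with a range from 0.00119 to 0.128. The other 5 tested genes, Pcdhgb2, Pcdhgb5, Pcdhgb7, Pcdhga9, and Pcdhga11, had log2 fold changes from -0.62 to -0.28 (edgeR adjusted p from 0.129 to 0.517). Among the untested genes, Pcdhga4 stood out for 1 sample, with 6, 9, and 14 counts in the WT samples and 7, 28, and 8 in the Tnfaip2-/- samples. It passed both filter and test, as higher in Tnfaip2-/- EBs, in the fit without Tnfaip2-/- replicate 1 only.

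Per countable kb, Pcdhgc3 was the highest Pcdhg gene in WT EBs with 1.58 ± 0.119 CPM (SD, n = 3), above Pcdhga2 with 0.803 ± 0.0775 CPM and Pcdhga1 with 0.702 ± 0.114 CPM. The latter pair did not differ beyond the spread. In Tnfaip2-/- EBs, Pcdhga1 with 0.625 ± 0.117 CPM, Pcdhgc3 with 0.589 ± 0.183 CPM, and Pcdhga2 with 0.565 ± 0.109 CPM per countable kb were within the spread of each other. Whether the levels follow the order of the genes along the chromosome was not tested. In WT EBs, Pcdhga11 (0.545 CPM per countable kb) and Pcdhga7 (0.500) were higher than most of their neighbours. Only 33.1% of the exon bases of Pcdhgc3 and 26.4% of those of Pcdhga11 were countable. In Pcdhgc3, BC037039 on the opposite strand covers 1559 exon bases. The levels of both genes per countable kb thus rest strongly on the counting assumed above.

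**Figure D2:**
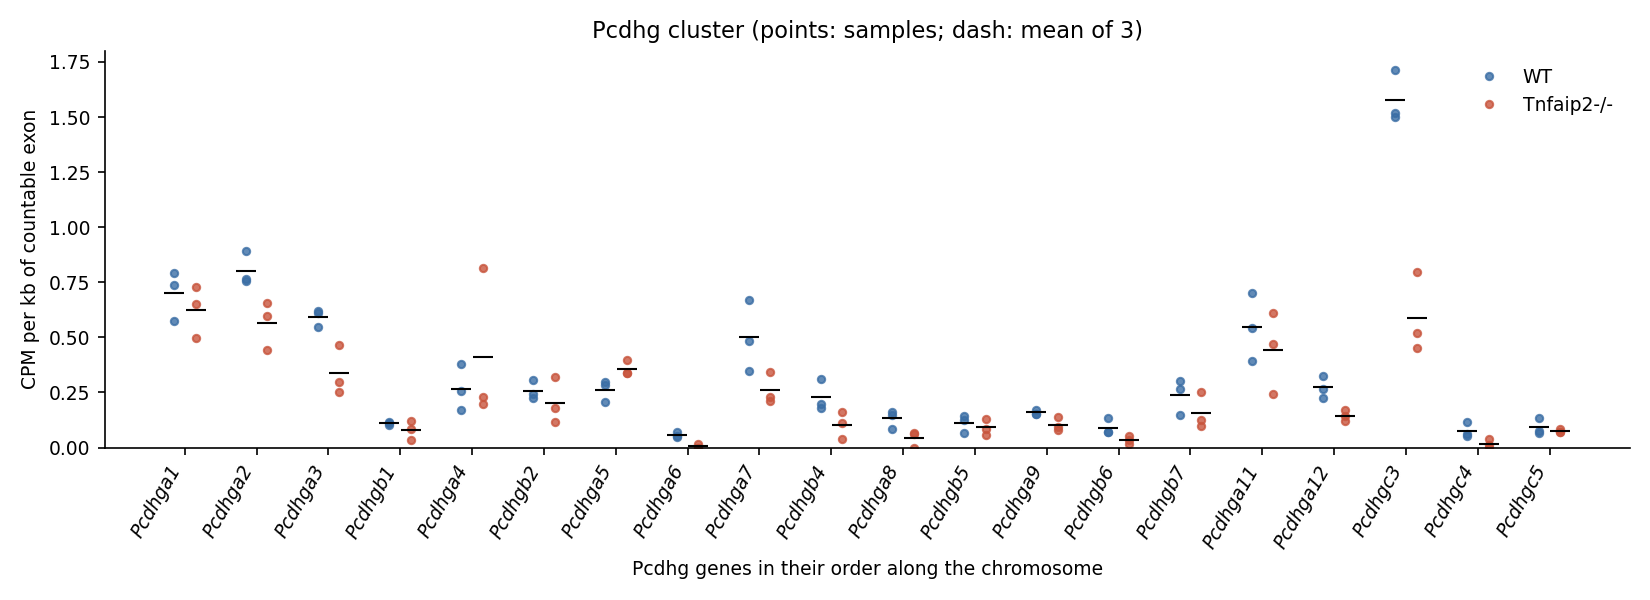
Level of 20 Pcdhg genes in their order along the chromosome, in CPM per kb of countable exon, with 1 point per sample and a dash for the mean of 3 samples (Pcdhga10, without countable bases, is not shown). Pcdhgc3 is at 1.58 in WT EBs and at 0.589 in Tnfaip2-/- EBs, and 1 Tnfaip2-/- sample of Pcdhga4 lies above the others.

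The 14 Pcdha genes had at most 5 counts in any sample, and 3 of them had 0 counts in all samples. Pcdha12 had 3, 5, and 2 counts in the WT samples and 2, 0, and 0 in the Tnfaip2-/- samples. Of the C-type genes, Pcdhac2 had 3, 2, and 3 counts against 1, 3, and 2 counts, and Pcdhac1 had 3, 0, and 0 counts against 0, 1, and 0 counts. Values this low overlap or lie at the limit that a count of 0 allows, and no fold change is given. Pcdha6, the remaining gene among the 3 highest of the cluster, had 1, 0, and 1 counts against 1, 2, and 0 counts, and the other 10 Pcdha genes had between 0 and 2 counts in each sample. As in the Pcdhg cluster, at least 2860 exon bases of every Pcdha gene are also annotated in other genes on the same strand, and in Pcdha7 24.9% of the 51-base windows, the read length, in countable sequence also occur in other genes, the highest share of the cluster. The symbol Pcdha11 is carried by 2 identifiers, with at most 1 count each.

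The 22 Pcdhb genes were similarly low, although nearly all of their exon sequence was countable (median 100%). Pcdhb22, the last gene of the cluster, was the highest with 9, 3, and 9 counts in the WT samples and 11, 6, and 6 in the Tnfaip2-/- samples, and its groups overlapped. Pcdhb3 had 4, 2, and 5 counts against 3, 1, and 2 counts, and Pcdhb17 had 1, 3, and 4 counts against 0, 3, and 3 counts, both with overlap. The other 19 genes had between 0 and 5 counts in each sample, and Pcdhb9 had 0 in all.

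The sums over members are given as a description, without a p and without a test between subsets. The unclustered genes summed to 2157, 2057, and 2141 counts in the WT samples and to 849, 852, and 863 in the Tnfaip2-/- samples. This is 92.6 ± 2.15 against 38.4 ± 0.889 CPM (SD, n = 3), a log2 ratio of -1.27 without overlap. Without Pcdh1, the 11 other unclustered genes summed to 15.0 ± 1.40 against 2.41 ± 0.245 CPM, a log2 ratio of -2.64. The Pcdhg genes summed to 376, 397, and 416 counts in the WT samples and to 269, 247, and 245 in the Tnfaip2-/- samples, or 17.3 ± 0.650 against 11.4 ± 0.407 CPM (SD, n = 3). Their log2 ratio was -0.61, again without overlap. Within this cluster the log2 ratio was -0.44 for the 12 Pcdhga genes, -0.63 for the 6 Pcdhgb genes, and -1.27 for the 3 C-type genes. Pcdhgc3 made up most of the C-type sum, with 2.87 of 3.56 CPM in WT EBs and 1.07 of 1.48 CPM in Tnfaip2-/- EBs. The Pcdhb genes summed to 41, 29, and 45 against 28, 31, and 21 counts, and the Pcdha genes to 13, 9, and 8 against 6, 10, and 5 counts. Both of these sums overlapped between the genotypes.

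**Figure D3:**
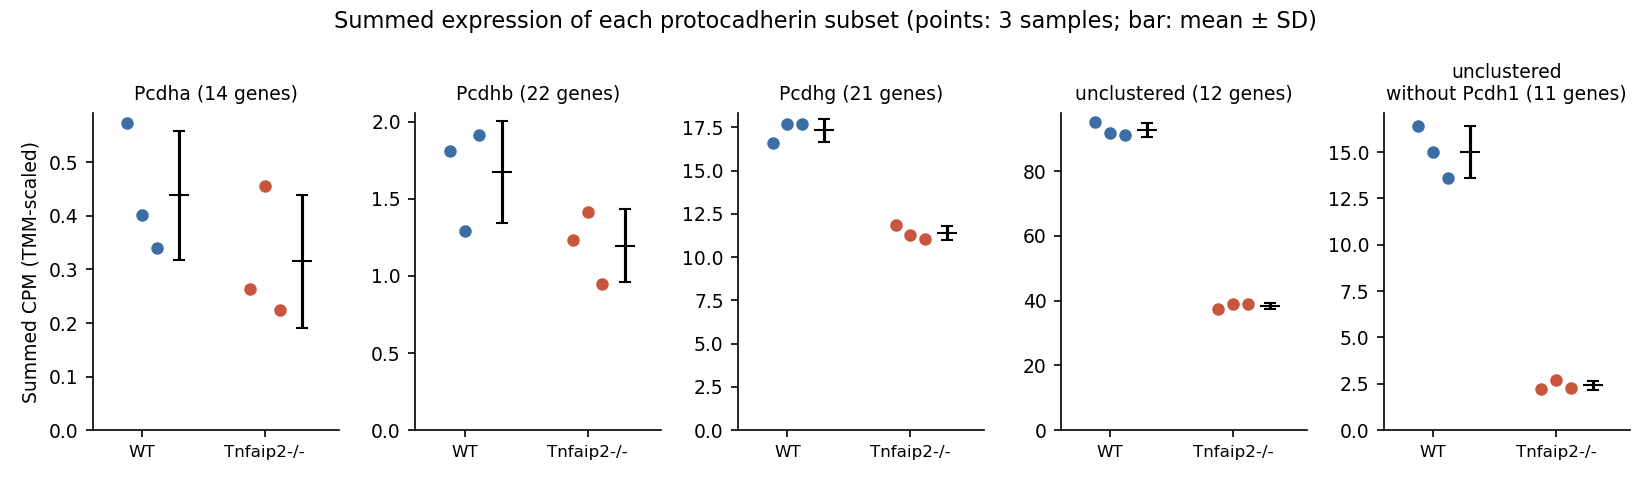
Summed CPM of the Pcdha, Pcdhb, Pcdhg, and unclustered genes, and of the unclustered genes without Pcdh1, with 1 point per sample, the mean ± SD of 3 samples as a bar, and an axis from 0 for each subset. Samples of the genotypes are apart for Pcdhg and both unclustered sums and overlap for Pcdha and Pcdhb.

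**Figure D4:**
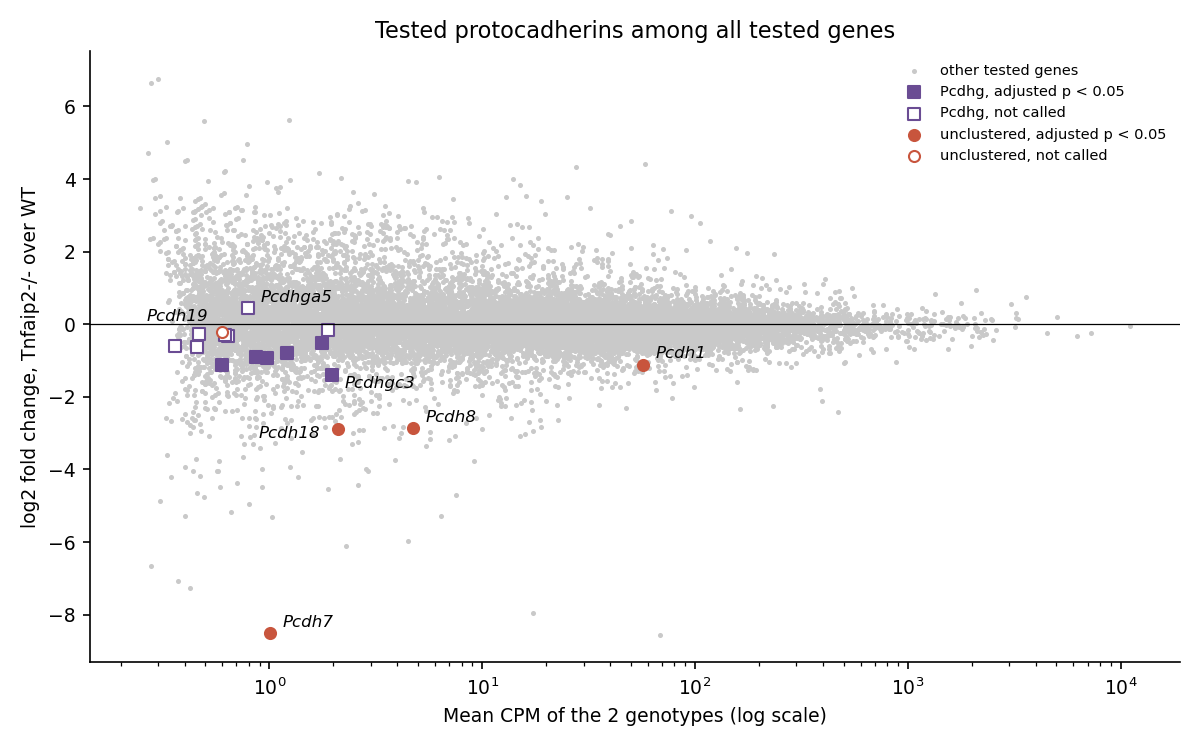
Log2 fold change (Tnfaip2-/- over WT) against mean CPM on a log axis for the 17849 tested genes in grey, with the 13 tested Pcdhg genes as squares and the 5 tested unclustered genes as circles, filled where the edgeR adjusted p is below 0.05. Of the 18 members 17 lie below 0, and the fitted value of Pcdh7, with 0 counts in Tnfaip2-/- EBs, is not a measured size.

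Other genes near the clusters on chromosome 18 moved in both directions. Taf7, a subunit of the TFIID complex, lies between the Pcdhb and Pcdhg clusters and had 2361, 2200, and 2430 counts in the WT samples and 3427, 3141, and 3113 in the Tnfaip2-/- samples. It was higher in each Tnfaip2-/- sample (log2 fold change 0.51, edgeR adjusted p = 1.33e-18). Diaph1, a formin that follows the Pcdhg cluster, was also higher (log2 fold change 0.75, edgeR adjusted p = 1.24e-27), and Hdac3, the next gene, was lower (log2 fold change -0.21, edgeR adjusted p = 6.23e-07). Dele1, between Pcdh1 and Pcdh12, was lower as well (log2 fold change -0.38, edgeR adjusted p = 1.39e-10). Between Hdac3 and Pcdh1, Fchsd1 was higher (log2 fold change 0.83, edgeR adjusted p = 1.20e-09). Arap3 was also higher (0.22, edgeR adjusted p = 0.0238), although its groups overlapped, and Rell2 was not called.

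Genes that regulate the clusters were compared as fixed lists, counted beside the 33.7% of all tested genes called lower and the 34.0% called higher. Of 11 genes of CTCF and cohesin, 7 were higher and 3 lower in Tnfaip2-/- EBs (median log2 fold change 0.19), led by Wapl, which releases cohesin from DNA, at 171 ± 1.83 against 245 ± 3.35 CPM (SD, n = 3; log2 fold change 0.52, edgeR adjusted p = 6.12e-22). With total counts as the only scaling, 2 of the 11 were lower. In the main fit, Ctcf itself was among the lower genes, at 206 ± 2.34 against 195 ± 2.71 CPM (SD, n = 3; log2 fold change -0.082, edgeR adjusted p = 0.00664). Of 16 genes of silencing and DNA methylation, 12 were lower and 2 higher (median -0.36), and 11 were lower with total counts only. The de novo methyltransferases were the furthest apart, Dnmt3a with 14564, 14583, and 14778 counts in the WT samples and 3296, 3159, and 3384 in the Tnfaip2-/- samples (log2 fold change -2.12, edgeR adjusted p = 8.25e-46), and Dnmt3b with a log2 fold change of -1.79 (edgeR adjusted p = 7.60e-44). Tet3 and Tet2, which oxidise methylated cytosine, had log2 fold changes of -1.08 and -0.68. Whether these differences have a part in those of the Pcdhg genes was not tested.

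Among partners of protocadherins, 10 of 11 genes of the WAVE actin complex, which binds many protocadherin tails, were tested, and 4 were lower and 3 higher (median -0.012), a split that turned to 3 lower and 4 higher with total counts only. Nckap1l had the largest difference (log2 fold change -0.73, edgeR adjusted p = 3.52e-09). Of 9 kinases, phosphatases, and adaptors, 5 were higher and 2 lower (median 0.10). The lower genes were Set (log2 fold change -0.22, edgeR adjusted p = 3.89e-12) and Dab1 (-0.19, edgeR adjusted p = 0.00747). Ret, a receptor kinase that phosphorylates clustered protocadherins, rose from 0.83 ± 0.116 to 3.24 ± 0.522 CPM (SD, n = 3; edgeR adjusted p = 6.37e-12), and Ptk2b, a kinase bound by their constant tails, rose by 1.52 on the log2 scale (edgeR adjusted p = 6.63e-17). Of 8 genes of ADAM10 and gamma-secretase, which cleave protocadherins, 4 were higher and 3 lower (median 0.12), among them Adam10 itself (log2 fold change 0.43) and Aph1a (-0.60). Of the higher genes, Aph1c met the filter on low counts in the Tnfaip2-/- samples only.

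The other cadherins were compared in the same way. Of 28 classical and desmosomal cadherins, 13 were tested, with 6 lower and 4 higher (median -0.37), and 5 each with total counts only. Cdh10, Cdh22, and Cdh11 were lower (log2 fold changes -2.24, -1.84, and -1.62), and Dsc2, a desmosomal cadherin, was higher (1.6). Cdh10 met the filter on low counts in the WT samples only. Of 18 atypical cadherins, 10 were tested, with 6 lower and 2 higher (median -0.37). Fat3 was lower (log2 fold change -2.15), as were Celsr2 (-0.74) and Celsr3 (-0.56), and Fat1 was higher (0.55, edgeR adjusted p = 1.64e-22).

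Markers of the cell types that EBs can hold also differed, and their part in the differences of Pcdh8, Pcdh18, Pcdh7, and the other members was not tested. Several markers met the filter on low counts in 1 genotype only, so that the filter itself favours their direction and the counts and medians of these lists are a description. In the WT samples only these were T, Mixl1, Mesp1, Zic1, Fabp7, Dcx, Snap25, Kdr, Afp, Cdx2, Col1a2, and Col3a1, and in the Tnfaip2-/- samples only Tie1, Krt7, and Hand1. Of 10 markers of primitive streak and early mesoderm, where Pcdh8 is known to be expressed, 9 were tested, 8 were lower, and none was higher (median log2 fold change -2.45). They summed to 107, 105, and 102 CPM in the WT EBs and to 26.6, 24.7, and 27.97 CPM in the Tnfaip2-/- EBs, with T as the most abundant gene by CPM in WT EBs and Eomes in Tnfaip2-/- EBs. These sums did not overlap between the genotypes. Brachyury (T) had 774, 732, and 866 counts in the WT samples and 5, 3, and 1 in the Tnfaip2-/- samples, and Mesp1 had 32, 26, and 16 against 0, 2, and 2 counts, values too low in Tnfaip2-/- EBs for a fold change to be given. Fgf8 had a log2 fold change of -4.69 and Mixl1 of -3.74. Of 6 somite and paraxial mesoderm markers, 2 were tested and both were lower (sums of 84.1, 81.7, and 79.9 against 71.8, 74.0, and 78.3 CPM), of which only Pax3 (log2 fold change -1.43) was called with total counts only, while Tcf15, the most abundant, had a log2 fold change of -0.10. Meox2 and Foxc2, transcription factors of somites, never exceeded 3 counts. The other untested markers of this list were Meox1 and Uncx. Meox1 had 9, 8, and 5 against 0, 1, and 1 counts, and Uncx had 5, 1, and 2 against 0, 0, and 0 counts. Of 8 markers of neural progenitors, 6 were tested and all 6 were lower (sums of 119, 118, and 111 against 49.7, 49.1, and 49.5 CPM), with Sox1 the most abundant, and Zic1 had 111, 94, and 107 against 2, 0, and 2 counts. Of 10 neuronal markers, 9 were tested, 5 lower and 2 higher (sums of 248, 243, and 248 against 149.8, 154, and 159 CPM), with Stmn2 (log2 fold change -1.74) the most abundant in WT EBs and Tubb3 (0.37) in Tnfaip2-/- EBs. Both neural sums were lower in every Tnfaip2-/- sample than in any WT sample. The fall of the neuronal sum was carried by Stmn2, with a mean of 99.4 CPM over all samples. This sum therefore does not stand for the other neuronal markers.

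All 9 markers of naive pluripotent cells were called, 5 higher and 4 lower, and they summed to 1064, 1062, and 1061 CPM in the WT EBs and to 1339, 1344, and 1357 CPM in the Tnfaip2-/- EBs, with Nanog the most abundant in WT EBs and Zfp42 in Tnfaip2-/- EBs. Dppa3 was higher (log2 fold change 2.67) and Nr0b1 lower (-1.72). The naive list thus held genes of both directions. Of 6 markers of all pluripotent cells, 4 were lower, or 3 with total counts only, and 1 was higher (sums of 2150, 2131, and 2122 against 1710, 1730, and 1750 CPM), with Pou5f1 the most abundant (log2 fold change -0.86), and of 5 markers of primed cells, 4 were lower and none was higher (sums of 959, 960.0, and 957 against 491, 482, and 482 CPM), with Dnmt3b the most abundant in WT EBs and Otx2 in Tnfaip2-/- EBs. The difference in the primed sum was mostly that of Dnmt3b, at 598 against 173 CPM, a gene also in the methylation list. Otx2 was not called (log2 fold change -0.0085), whereas Fgf5 and Pou3f1 each had -0.43 and Lef1 had -0.96. The endothelial list had 1 lower and 4 higher of 5 tested genes (sums of 31.3, 30.8, and 29.7 against 42.4, 45.9, and 48.55 CPM, with Pecam1 the most abundant), and Cdh5, which defines these cells, had at most 10 counts in any sample. Of 8 tested primitive endoderm markers, 4 were lower and 2 higher (sums of 81.55, 79.7, and 79.7 against 69.2, 68.8, and 70.7 CPM), with Dab2 the most abundant. Of 5 tested trophoblast markers, 1 was lower and 4 higher, and their sums of 27.3, 24.7, and 26.3 against 180, 177, and 179 CPM were largely Tfap2c (log2 fold change 2.98), whereas Cdx2 was lower with 42, 37, and 28 against 1, 2, and 0 counts, Elf5 never exceeded 3 counts, and Prl3d1 was at 0. Of 5 tested fibroblast markers, 3 were lower and none was higher, with sums of 14.6, 16.6, and 14.5 against 10.7, 10.5, and 10.8 CPM and Pdgfra the most abundant.

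**Figure D5:**
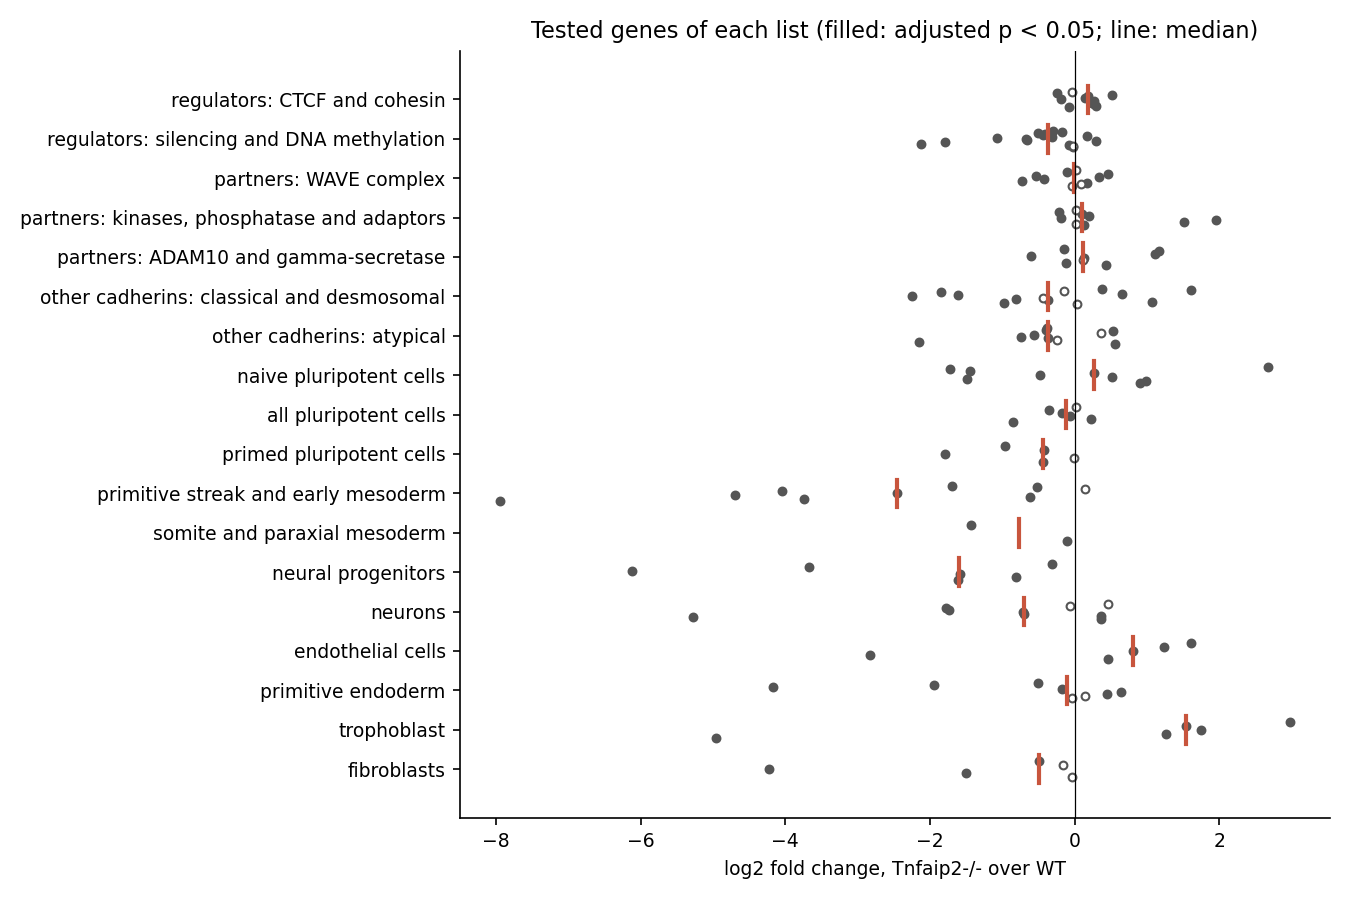
Log2 fold change (Tnfaip2-/- over WT) of the tested genes of each list, 1 point per gene, filled where the edgeR adjusted p is below 0.05, with a line at the median of the list. All 6 tested neural progenitor markers and 8 of the 9 tested primitive streak markers lie to the left of 0, and among the regulators Dnmt3a and Dnmt3b lie at -2.12 and -1.79. The positions of T, Mesp1, Zic1, Fabp7, Dcx, Afp, Cdx2, and Col3a1 are fitted values at very low counts in Tnfaip2-/- EBs. They are not measured sizes.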

How the data were processed

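Total RNA of 6 EB samples was sequenced as single-end reads with a kit that does not mark strand. Per the submitters' processing notes and the methods, the authors trimmed reads with SGA, mapped them with TopHat2 2.1.0 to GRCm38, counted uniquely mapped reads on Ensembl genes with featureCounts 1.5.0, and deposited these counts without normalization. The strand and overlap settings of the counting are not given for these samples in the sources used here. For the planarian libraries of the study, the methods state that reads overlapping more than 1 gene were left out and that counting was stranded. Base calling is given with different versions of bcl2fastq. Drop volume and cell number also differ between the labels and the methods.

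The statistics used edgeR 4.0.16 under R 4.3.3: TMM factors, the default filter (minimum count 10, minimum total 15), which kept 17849 genes, the robust quasi-likelihood F test in its newer form, and Benjamini-Hochberg adjustment over all tested genes with a threshold of 0.05. Standard errors were derived from the F statistic and are approximate. Values are CPM scaled by TMM, and a gene is described as called where its adjusted p was below 0.05. The procedure was tested on simulated data. Countable bases are exon bases of GENCODE M21 that lie in no exon of another gene of the table on either strand. They assume counting without strand and without reads on more than 1 gene, which the sources used here do not state for these samples. Replicates differed by 1.324 to 1.878 times the sampling noise, which is more than counting error alone. This excess cannot show whether the replicates were independent cultures.

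The members and lists were chosen with earlier results of these data known. Named were the unclustered members with a mean of at least 10 counts in either genotype, in each cluster the 3 members with the highest mean CPM and the tested ones with the largest increase and decrease, all C-type genes, and in each list up to 4 called genes with the largest change, of those whose mean reached 1 CPM in WT or Tnfaip2-/- EBs. Of the genes so found, those of the lists are given in part. Alternatives were RLE factors, total counts only, no filter, a filter of at least 1 CPM in 3 samples, DESeq2 1.42.0, the legacy form of the fit, the replicate number as a block, leaving out each sample, and a test for changes beyond 1.5-fold. Pcdhgb8, annotated as a polymorphic pseudogene, was not among the members.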

Additional observations from a re-analysis of the deposited data

How the results depend on the processing

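Across the alternatives 298 values were computed. Of these, 283 had the same direction and call, or moved by less than the spread between replicates (sums) or 1.5 times (counts), 15 became weaker, and none reversed. When changes were tested against 1.5-fold, the genes called fell from 12084 to 2798 and the members called from 10 to 5 (Pcdh1, Pcdh7, Pcdh8, Pcdh18, and Pcdhgc3), as the stricter hypothesis asks for a larger change. These 5 members were called under every alternative. With DESeq2, 7 members were called, without Pcdhga2, Pcdhga12, and Pcdhgb4, and with at least 1 CPM in 3 samples also 7 of 8 tested, without Pcdhga7, Pcdhga12, and Pcdhgb4, of which the latter 3 were not tested. Without a filter, 13 were called, with Pcdhga6, Pcdhga8, and Pcdhgc4 added. Leaving out 1 sample gave between 9 and 10 members and between 11537 and 11744 genes called. No positive pairing by replicate number was seen, as the deviations of same-numbered samples correlated at -0.166, -0.144, and -0.121 across 10718 genes. With 3 samples per genotype, these values cannot exclude a shared culture or day. With the replicate block 11841 genes and 10 members were called, the same 10 as without it. Leaving out 1 sample moved the log2 ratio of the Pcdhg sum between -0.638 and -0.586, that of the unclustered sum between -1.285 and -1.253, that of the Pcdhb sum between -0.636 and -0.338, and that of the Pcdha sum between -0.842 and -0.235. Depth limits the Pcdha and Pcdhb genes, whose counts are mostly at or below the 3 counts that a count of 0 allows.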

Other observations

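Pcdhgb8, which lies in the Pcdhg cluster but is annotated as a polymorphic pseudogene and is therefore outside the 69 members, had 13, 13, and 26 counts in the WT samples and 7, 2, and 9 in the Tnfaip2-/- samples, all WT samples above all Tnfaip2-/- samples. Its log2 fold change was -1.47 (SE 0.393, edgeR adjusted p = 0.00101), and it met the filter on low counts in the WT samples only, so a lower value in Tnfaip2-/- EBs is favoured by the filter itself.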
